A study of Mus musculus with 6 samples.

Results

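The genes described here are 49 genes of DNA replication licensing and of the replication fork, chosen by symbol from a fixed list and followed in AML blasts with or without TET2. All 49 were found among the 53458 genes to which the deposited transcripts could be assigned, and their reads came from 282 annotated transcripts. Blasts were sorted from the bone marrow of 3 Cebpa-/p30 Tet2+/+ mice (mice 19, 23 and 24) and 3 Cebpa-/p30 Tet2-/- mice (mice 5, 7 and 8), and 1 RNA-seq library was made per mouse. The labels give the strain as C57BL/6, and per the study's methods donors were C57BL/6J and recipients C57BL/6J.SJL. All 6 mice carried the same Cebpa lesion, in which one allele was deleted and the other made only the short p30 isoform of the myeloid transcription factor C/EBPα, and by their labels the genotypes differed in Tet2 only. TET2 is a dioxygenase that oxidises 5-methylcytosine in DNA. The floxed alleles were deleted by Mx1-Cre, an interferon-inducible Cre switched on with Poly(I)-Poly(C) and active in haematopoietic as well as other cells, after donor marrow had been transplanted into lethally irradiated recipients. The sort kept live donor-derived CD45.2+ cells negative for CD3, B220 and Ter119 from moribund recipients, and the ages of the mice are not given in the labels. The study reports that recipients of Tet2-/- cells survived for less time than those of Tet2+/+ cells. Time from deletion to sampling may therefore differ with genotype and cannot be told apart from it.

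Before a cell copies its DNA, the origin recognition complex (ORC) together with CDC6 and CDT1 loads the ring-shaped MCM2-7 helicase onto origins, a step called licensing, which geminin blocks by binding CDT1. In S phase CDC45 and the GINS complex join MCM2-7 to form the active helicase, polymerase α with primase starts each strand, and polymerases δ and ε extend it with the clamp PCNA, which RFC loads. Transcripts of most of these genes are known to increase as cells pass from G1 into S phase, in large part through E2F factors, and their level in a population of cells is known to depend on the share of cells in cycle. In these bulk samples, fewer cells of a type and less RNA per cell cannot be told apart.

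Because E2F factors are known regulators of many licensing genes, the promoters of the members were read for E2F sequences. Promoters from RefSeq (build GRCm38.p6, 250 bases before to 50 bases after the annotated start) were matched by symbol for 40 of the 49 genes, giving 48 promoters. Gmnn, Mcm4, Gins1, Gins2, Gins4, Prim2, Pole, Rfc2 and Tipin had no promoter there and were not searched. The motifs searched were TTTCGCGC, TTTGGCGC, TTTCCCGC and TTTGCCGC on both strands, and matches may overlap where a motif on one strand runs into a motif on the other. At least 1 of them lay in 15 of the 48 promoters (31.2%), against 2.26% of 32851 mouse promoters and 4.22% of 10241 promoters of genes that averaged 5 or more CPM (counts scaled to library size and normalized between mice). The 15 genes were Cdc6, Cdt1, Gins3, Lig1, Mcm3, Mcm5, Mcm6, Mcm7, Orc1, Orc3, Pola1, Pold1, Pold3, Pole2 and Rfc3. Among these, Mcm7 and Lig1 also had other promoters without a match, and the promoter of the helicase subunit Mcm2 held none. The CCAAT box (CCAAT, both strands) lay in 54.2% of the members' promoters, against 37.4% of all promoters and 38% of those of genes with at least 5 CPM. Shown here are the promoters of 4 helicase subunits with more than 1 E2F match, beside those of Cdc45, the member with the largest difference between genotypes, and Rrm2, the member with the next largest, neither of which held a match. Each is written 5′ to 3′ along the strand of its gene, and capitals mark the E2F matches.
Mcm3 promoter, chr1:20820263-20820562, minus strand: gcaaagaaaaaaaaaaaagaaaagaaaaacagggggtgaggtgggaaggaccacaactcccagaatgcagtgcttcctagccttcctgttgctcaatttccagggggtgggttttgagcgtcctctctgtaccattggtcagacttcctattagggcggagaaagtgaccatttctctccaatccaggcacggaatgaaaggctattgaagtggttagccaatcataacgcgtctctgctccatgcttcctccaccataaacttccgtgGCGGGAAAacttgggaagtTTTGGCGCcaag
Mcm5 promoter, chr8:75109259-75109558, plus strand: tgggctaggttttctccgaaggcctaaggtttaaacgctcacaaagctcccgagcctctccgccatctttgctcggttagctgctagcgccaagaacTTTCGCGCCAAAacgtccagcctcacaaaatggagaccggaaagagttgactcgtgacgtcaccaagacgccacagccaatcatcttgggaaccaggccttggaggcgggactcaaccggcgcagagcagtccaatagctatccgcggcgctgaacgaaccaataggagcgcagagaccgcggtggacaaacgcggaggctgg
Mcm6 promoter, chr1:128359656-128359955, minus strand: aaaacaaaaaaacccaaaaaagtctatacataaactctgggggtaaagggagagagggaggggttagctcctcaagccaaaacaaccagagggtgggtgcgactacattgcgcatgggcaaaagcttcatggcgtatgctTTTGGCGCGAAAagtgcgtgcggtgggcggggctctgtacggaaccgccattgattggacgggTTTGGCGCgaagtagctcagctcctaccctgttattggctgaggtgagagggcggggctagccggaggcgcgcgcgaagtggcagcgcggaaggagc
Mcm7 promoter, chr5:138171834-138172133, minus strand: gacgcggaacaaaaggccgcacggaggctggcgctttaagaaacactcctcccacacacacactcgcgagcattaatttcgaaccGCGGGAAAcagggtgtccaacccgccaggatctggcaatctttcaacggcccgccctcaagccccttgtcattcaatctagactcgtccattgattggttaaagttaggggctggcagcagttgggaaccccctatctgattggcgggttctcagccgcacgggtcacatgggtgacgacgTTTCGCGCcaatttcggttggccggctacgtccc
Cdc45 promoter, chr16:18811923-18812222, minus strand: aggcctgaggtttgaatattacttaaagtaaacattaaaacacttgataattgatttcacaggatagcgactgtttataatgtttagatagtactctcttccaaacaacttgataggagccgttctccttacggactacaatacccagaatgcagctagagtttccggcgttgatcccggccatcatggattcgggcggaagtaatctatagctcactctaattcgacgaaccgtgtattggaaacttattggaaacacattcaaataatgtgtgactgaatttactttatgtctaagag
Rrm2 promoter, chr12:24708004-24708303, plus strand: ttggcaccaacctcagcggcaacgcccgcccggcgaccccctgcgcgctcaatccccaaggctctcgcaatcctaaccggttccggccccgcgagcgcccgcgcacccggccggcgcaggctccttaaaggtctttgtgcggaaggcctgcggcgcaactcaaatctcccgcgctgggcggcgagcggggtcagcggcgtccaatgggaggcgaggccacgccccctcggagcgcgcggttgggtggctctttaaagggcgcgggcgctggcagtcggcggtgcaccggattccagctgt
In Mcm5 the matches begin 153 and 149 bases before the start and overlap, and in Mcm6 the matches that begin 110 and 106 bases before the start overlap while the third begins 47 bases before it. The Cdc45 window held a CCAAT box at 13 and at 2 bases before the start, on the opposite strand, and no E2F match. The 15 members with a match differed between genotypes by a median log2 fold change of 0.15 (range -0.09 to 0.33) and the 25 without one a median of 0.17 (range -0.05 to 0.80). Only exact matches within these windows were counted. A member without one may hold E2F sites of another sequence or position, so nothing about E2F is read from this split.

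The libraries held between 13036643 and 32855343 estimated reads, of which the members took between 0.372% and 0.486%, and every member passed the filter on low counts, with at least 104 reads in each mouse. At the level of the whole gene, Tet2 was not lower in Tet2-/- blasts, with 73.6, 79.5 and 98.4 CPM in mice 19, 23 and 24 and 111.4, 79.4 and 96.7 CPM in mice 5, 7 and 8. Reads over the whole gene do not show whether the floxed part was lost. Cebpa had 140, 194 and 287 CPM against 158, 75.7 and 124 CPM. Myeloid markers of the labelled cell type were present in every mouse, since 9 genes including Mpo, Elane and Kit summed to between 7455 and 10483 CPM. Of the 9, Mpo and Cd34 were lower in Tet2-/- mice without overlap. Mpo had 4527, 4110 and 4230 against 3394, 3091 and 2662 CPM, and the progenitor marker Cd34 had 170, 310.004 and 193 against 90.03, 32.1 and 132 CPM (log2 fold change -1.41, adjusted p = 0.582 from edgeR). Elane had 974, 152 and 296 against 1333, 1008 and 913 CPM, which overlapped. Markers of other cells differed more, and 6 genes of mature neutrophils summed to 53196, 9877 and 36776 CPM in Tet2+/+ mice and to 59156, 106591 and 22699 CPM in Tet2-/- mice. The 5 monocyte genes summed to 589, 1559 and 517 against 1540, 172 and 2523 CPM, the 4 plasma cell genes, mostly Jchain, to 135, 184 and 140 against 50.1, 29.1 and 29.6 CPM, and the 4 basophil and mast cell genes, mostly Cpa3, to 281, 368 and 356 against 102, 56.1 and 25.7 CPM. The plasma cell genes Mzb1, Sdc1 and Tnfrsf17 each overlapped between genotypes. The sums of the B cell, T cell, erythroid and megakaryocyte lists were at most 315 CPM in any mouse, though Itga2b of the megakaryocyte list was lower in Tet2-/- mice without overlap (39.5, 43.8 and 23.7 against 13.7, 21.7 and 6.95 CPM). None of the genes in the 9 lists was without reads, and the part of these cells in the results was not tested.

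Across the 49 genes, differences between genotypes were small, and none passed the test. With edgeR's quasi-likelihood test and Benjamini-Hochberg adjustment over 22170 genes, 0 of 49 members passed an adjusted p of 0.05, and 0.0451% of all genes (10 genes) and 0.085% of the 10584 genes with at least 5 CPM did, all of them lower in Tet2-/- blasts. The lowest adjusted p among the members was 0.419, for Cdc45 with edgeR. With DESeq2 on the same counts 0 members passed, where 385 of 22170 genes did, and the lowest adjusted p among the members was 0.0678. At an unadjusted p under 0.05 1 member was higher in Tet2-/- blasts and 0 were lower, against 3% and 5.12% of all genes tested, or 4.71% and 4.11% of those with at least 5 CPM. The median log2 fold change (Tet2-/- over Tet2+/+) was 0.15 with a range from -0.10 to 0.80, and 42 of 49 values were above 0, against 50.1% of all genes and 61% of the genes with at least 5 CPM, whose median was 0.09. When counts were scaled by library size alone, the median of all genes moved to -0.17, that of the members to -0.015 and the number above 0 to 21. Relative to all genes the members then stood 0.15 higher, but the median of genes with at least 5 CPM was not taken at that scale. The median was 0.05 without mouse 24 and 0.077 without mouse 5, and 0.23 without mouse 19 and 0.22 without mouse 7. The 95% intervals of the 49 log2 fold changes reached no lower than -0.81 and no higher than 1.29, which bounds the differences these mice allow.

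**Figure D1:**
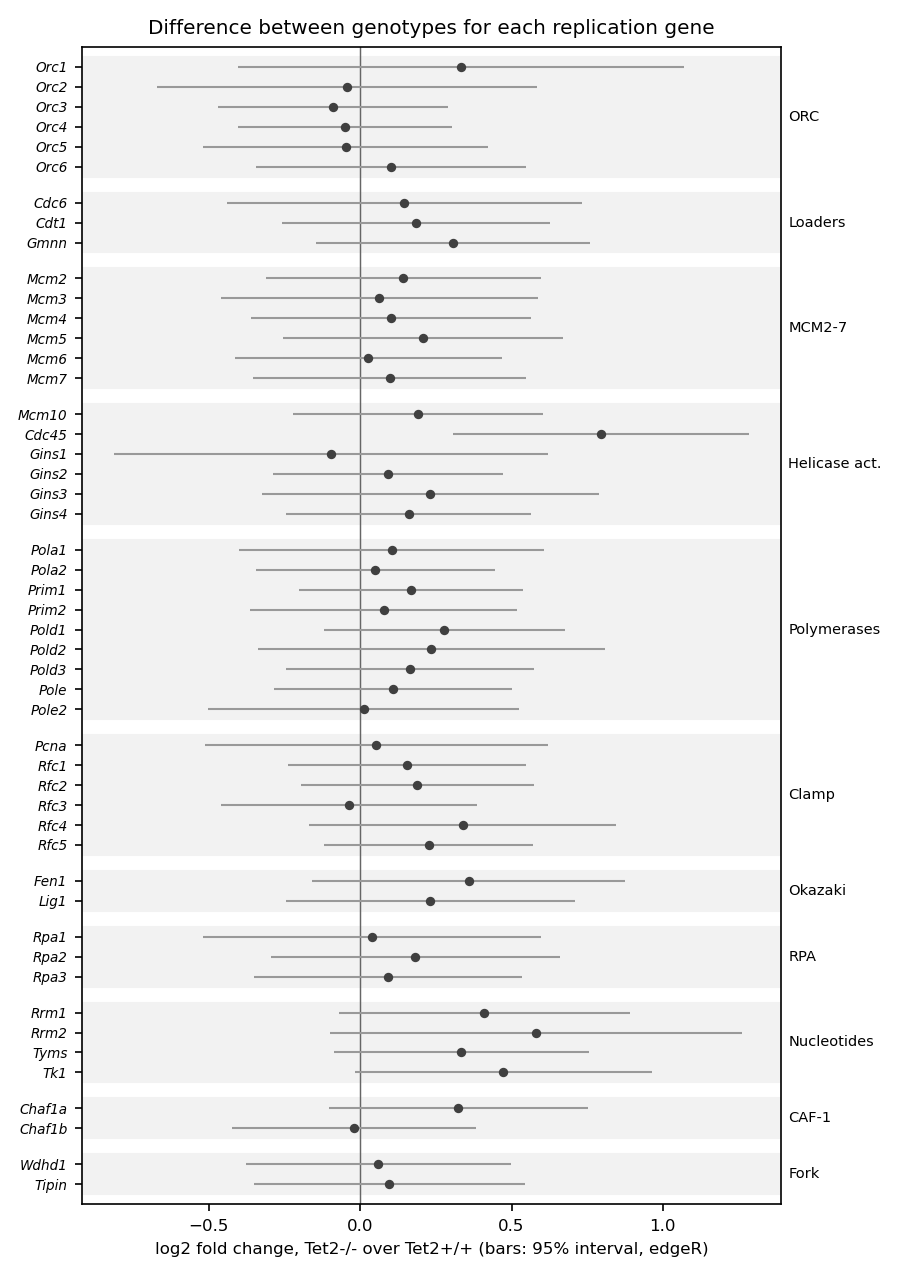
Log2 fold change of each of the 49 replication genes (x axis, Tet2-/- over Tet2+/+, edgeR) with its 95% interval as a bar, grouped by role. The interval of Cdc45, from 0.31 to 1.29, is the only one of the 49 that excludes 0, and with library size alone as the scale 21 values rather than 42 lie above 0.

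Among the genes of ORC, the complex that marks origins, 2 of 6 had values above 0 and 4 below, with a median log2 fold change of -0.05 (-0.20 with library size alone, 0.05 with length-scaled counts and 0.13, with 4 of 6 above 0, without mouse 7). Orc4, the most abundant subunit per length when all annotated transcripts are summed (the scale of this rank in every role, though Orc4 was highest in 3 of 6 mice only, with means of 30.4 TPM and 30.1 TPM for Orc3), had 33.4, 35.02 and 32.5 CPM in Tet2+/+ mice and 32.1, 33.8 and 31.5 CPM in Tet2-/- mice, which is the narrowest spread in the complex. Orc1, an ATPase subunit, had 10.3, 7.98 and 7.32 CPM against 9.30, 8.17 and 14.8 CPM (log2 fold change 0.33, standard error (SE) 0.31), and mouse 8 alone lay above the Tet2+/+ mice. With a mouse left out the log2 fold change of Orc1 lay between 0.033 and 0.50. Orc2 was most variable among Tet2-/- mice, with 33.5, 21.0 and 42.8 CPM, around Tet2+/+ values of 33.7, 34.3 and 32.3 CPM, and it shares 29.8% of its exonic bases with Nif3l1 on the opposite strand. Orc3, Orc5 and Orc6 had log2 fold changes of -0.09, -0.05 and 0.10, with SEs between 0.16 and 0.20. All 6 genes overlapped between genotypes.

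The loading factors had log2 fold changes above 0. Gmnn, which encodes the licensing inhibitor geminin and was the most abundant per length, had 43.9, 35.6 and 34.4 CPM in Tet2+/+ mice and 53.1, 38.5 and 49.3 CPM in Tet2-/- mice, a log2 fold change of 0.31 (SE 0.19, 95% interval -0.15 to 0.76). Mouse 7 lay below mouse 19, so the genotypes overlapped. Cdt1 and Cdc6, which load the helicase, had values of 0.18 (SE 0.19) and 0.15 (SE 0.25), and mouse 7 was the lowest Tet2-/- mouse in both. Without mouse 5 the value of Cdt1 was 0.015, and without mouse 7 it was 0.32. The median of the 3 loading genes, 0.18, was 0.018 with library size alone and between 0.12 and 0.32 with a mouse left out, the lowest without mouse 5 and the highest without mouse 7, with 0.31 without mouse 19. With library size alone Cdc6 turned to -0.0039.

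The MCM2-7 subunits, which form the helicase core, were among the members with most reads, and in none of them did the genotypes separate. Mcm6 had 372, 339 and 320 CPM in Tet2+/+ mice and 374, 291 and 386 CPM in Tet2-/- mice, a log2 fold change of 0.03 (SE 0.19, 95% interval -0.42 to 0.47). Mcm2 had 199, 175 and 148 CPM against 196, 162 and 217 CPM (log2 fold change 0.14, SE 0.19). In both genes the values of mouse 7 lay inside or below the Tet2+/+ range and those of mouse 8 above it. Mcm5 had the largest value of the 6, with 304, 281 and 216 CPM against 313, 278 and 335 CPM (log2 fold change 0.21, SE 0.20). Mcm3, Mcm4 and Mcm7 had log2 fold changes of 0.06, 0.10 and 0.10 with SEs between 0.19 and 0.22. The 6 values had a median of 0.10, and with library size alone all but that of Mcm5 were below 0, with a median of -0.06. Without mouse 24 the median was 0.0017 with 3 of 6 values above 0, without mouse 5 it was 0.021 and without mouse 8 0.026, and it was 0.23 without mouse 7 and 0.19 without mouse 19.

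The factors that turn the loaded ring into a moving helicase held the largest difference of the list. Cdc45 (ENSMUSG00000000028, GRCm38 chromosome 16, 18780447 to 18811987, minus strand) had 67.7, 49.2 and 49.1 CPM in mice 19, 23 and 24 and 111.8, 97.2 and 79.5 CPM in mice 5, 7 and 8. Every Tet2-/- mouse lay above every Tet2+/+ mouse, and the lowest of them was 17.5% above the highest Tet2+/+ mouse. The log2 fold change was 0.80 (SE 0.21, 95% interval 0.31 to 1.29), with an unadjusted p of 0.00616 and an adjusted p of 0.419 from edgeR, so it did not pass over all genes. The exact two-sided permutation test gave p = 0.1, the smallest possible with 3 mice against 3, and leaving out each mouse in turn gave log2 fold changes between 0.67 and 0.96. Its CPM stayed without overlap with library size alone, with RLE factors and as TPM. The library preparation does not mark strand, and 6% of the exonic bases of Cdc45 overlap those of Ufd1 on the opposite strand, so reads there cannot be assigned to either gene with certainty. The partners of CDC45 in the helicase differed less. Gins1, Gins2, Gins3 and Gins4, the GINS subunits, had log2 fold changes of -0.10, 0.09, 0.23 and 0.16 with SEs between 0.16 and 0.30, and Mcm10, needed to activate the helicase, had 0.19 (SE 0.18). Of Gins2, 67.3% of the exonic bases overlap Gse1 on the opposite strand, and with the reads of Gse1 added its value was -0.0050. Gse1 had a mean of 1515 reads against 1074 for Gins2, so that value rests more on Gse1 than on Gins2.

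The polymerase genes had 9 of 9 values above 0, between 0.01 and 0.28, and 3 of 9 with library size alone. Their median of 0.11 was 0.043 without mouse 5 and 0.053 without mouse 24, each with 6 of 9 values above 0, and 0.23 without mouse 7 and 0.20 without mouse 19. Pold1, the catalytic subunit of polymerase δ and the most abundant per length, had 131, 107 and 99.2 CPM in Tet2+/+ mice and 145, 137 and 126 CPM in Tet2-/- mice, where only mouse 19 lay within the Tet2-/- range. Its log2 fold change was 0.28 (SE 0.17, 95% interval -0.12 to 0.68). Pold2 and Pold3, the other subunits of polymerase δ, had 0.24 and 0.16. Values of 0.10 and 0.05 were found for Pola1 and Pola2, of polymerase α, and of 0.17 and 0.08 for its primase subunits Prim1 and Prim2. Pole and Pole2, of the leading strand polymerase ε, had 0.11 and 0.01, and all 9 genes overlapped between genotypes.

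Pcna, which encodes the sliding clamp and was the most abundant member per length, had 294, 261 and 201 CPM in Tet2+/+ mice and 195, 287 and 303 CPM in Tet2-/- mice. Its lowest value came from mouse 5, which was lowest in 2 of 49 members, and the log2 fold change was 0.05 (SE 0.24; -0.12 with library size alone). Of the clamp loader genes, Rfc5 had 60.2, 53.9 and 49.9 CPM against 62.5, 63.3 and 66.1 CPM. Its genotypes did not overlap, by a margin of 3.88%, and the log2 fold change was 0.23 (SE 0.15, adjusted p = 0.739 from edgeR). On the opposite strand Wsb2 overlaps 10.7% of the exonic bases of Rfc5, with a mean of 628 reads against 1150.2 for Rfc5. Rfc1, Rfc2, Rfc3 and Rfc4 had log2 fold changes of 0.16, 0.19, -0.04 and 0.34, and on the opposite strand Rfc2 shares 15.1% of its exonic bases with Lat2 and Rfc4 shares 12.7% with Eif4a2. On the lagging strand, Lig1, the ligase that joins Okazaki fragments, had 159, 127 and 109 CPM against 179, 149 and 136 CPM (log2 fold change 0.23, SE 0.20). The flap nuclease gene Fen1 had 0.36 (SE 0.22), with mouse 7 below mouse 19 and 23, and 78.8% of its exonic bases overlap the antisense gene Gm10143, which had a mean of 86 reads against 1303 for Fen1. Rpa3, of the RPA genes for the protein that coats single-stranded DNA, was the most abundant per length on average but in 3 of 6 mice only (33.7 TPM, and 33.1 TPM for Rpa1), and had 20.6, 19.9 and 17.8 CPM against 23.4, 18.8 and 20.0 CPM (log2 fold change 0.09, SE 0.19), and Rpa1 and Rpa2 had 0.04 and 0.18.

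Genes for nucleotide supply had the highest median of any role, 0.44, and kept 4 of 4 values above 0 with library size alone, with a median of 0.28. Rrm2 (ENSMUSG00000020649, chromosome 12, 24708241 to 24714146), the S phase subunit of ribonucleotide reductase, had 219.8, 111.4 and 175.3 CPM in Tet2+/+ mice and 269.4, 294.0 and 194.7 CPM in Tet2-/- mice. Mouse 8 lay below mouse 19, and the log2 fold change of 0.58 (SE 0.29) had an adjusted p of 0.658 with edgeR. It was 0.34 without mouse 23 and 0.81 without mouse 19. Rrm1, the large subunit, had 215.9, 143.9 and 164.4 CPM against 251.2, 206.3 and 238.9 CPM (log2 fold change 0.41, SE 0.20), and mouse 7 lay below mouse 19. Tk1, the thymidine kinase of the salvage pathway, had 75.5, 48.4 and 57.6 CPM against 92.0, 87.2 and 72.6 CPM (log2 fold change 0.47, SE 0.21, adjusted p = 0.632 from edgeR), and mouse 8 lay below mouse 19. Tyms, for thymidylate synthase, had 57.5, 42.6 and 41.0 CPM against 61.3, 59.0 and 57.6 CPM. Its genotypes did not overlap, but by a margin of 0.153% only, with a log2 fold change of 0.33 (SE 0.18, adjusted p = 0.677 from edgeR). In each of the 4 genes mouse 19 was the highest Tet2+/+ mouse and lay close to or inside the Tet2-/- range.

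Chaf1b, of the CAF-1 genes that assemble histones onto new DNA, was above Chaf1a per length in 3 of 6 mice only (13.4 and 11.1 TPM on average) and had 34.1, 34.8 and 28.6 CPM against 35.3, 29.96 and 30.8 CPM (log2 fold change -0.02, SE 0.17), while Chaf1a had 0.32 (SE 0.18) and shares 52.5% of its exonic bases with Ubxn6 on the opposite strand. Wdhd1, which links helicase and polymerase α, had 102, 76.9 and 82.5 CPM against 96.3, 75.9 and 100 CPM, and Tipin, of the fork protection complex, had a log2 fold change of 0.10. Counted over all roles, 3 of 49 members (Cdc45, Rfc5 and Tyms) were higher without overlap between genotypes and 0 were lower, against 6.41% and 7.94% of all genes tested. Of genes with at least 5 CPM, 9.81% were higher and 6.15% lower without overlap. The members' share, 3 of 49, was thus near that of other genes. With library size alone only Cdc45 was higher, and Orc3 and Orc4 were lower. Tyms overlapped with RLE factors, and Rfc5 overlapped as TPM, where Orc3 was lower. The shares of all genes were not taken at these other scales, so nothing is read from the counts there.

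**Figure D2:**
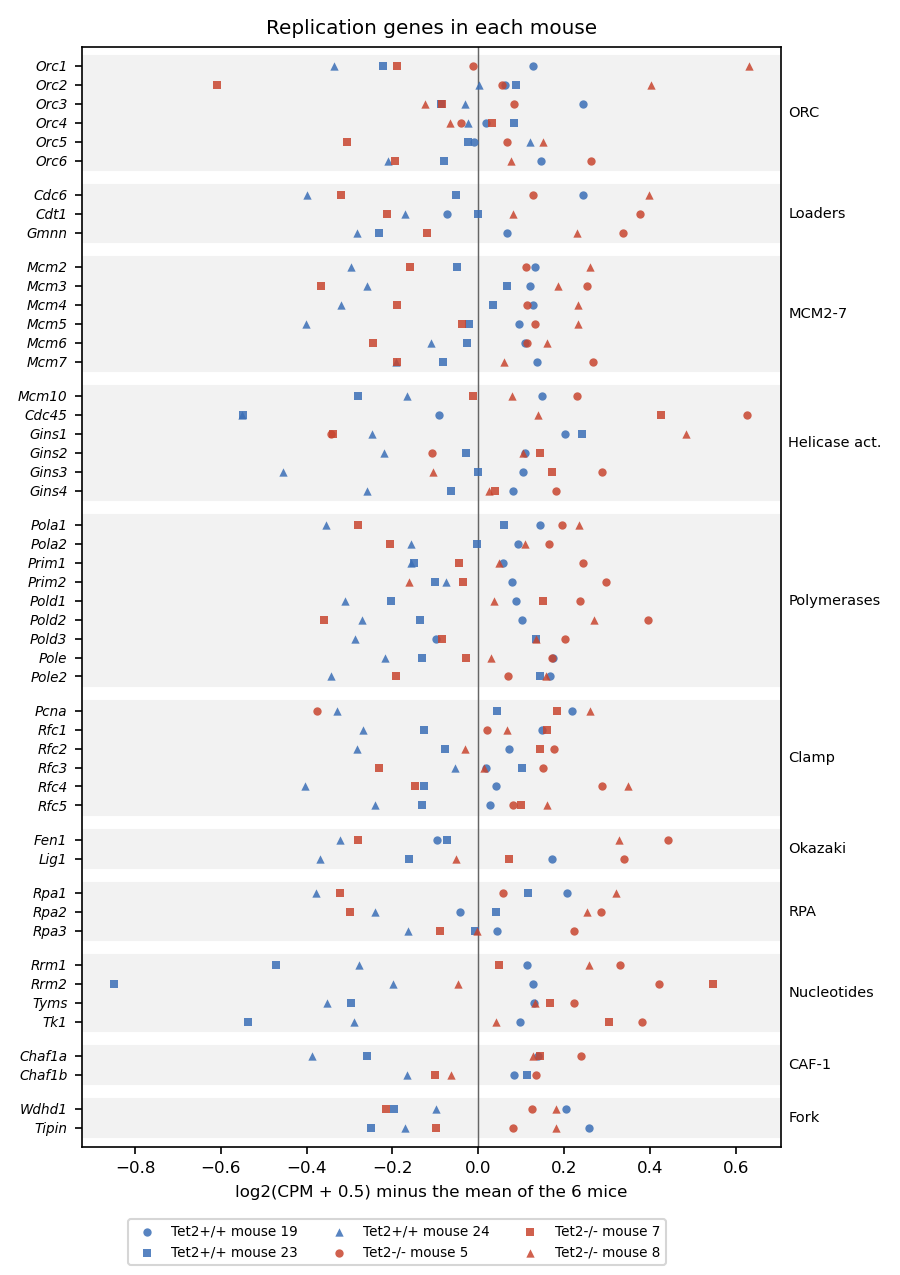
Log2(CPM + 0.5) of each replication gene in each mouse, minus the mean of the 6 mice (x axis), with Tet2+/+ mice in blue and Tet2-/- mice in red. Cdc45 separates the genotypes most widely, and for most genes mouse 24 (blue triangle) lies at the low end and mouse 5 (red circle) at the high end.

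Mice of the same genotype also differed from each other in these genes. The members' CPM summed to 4753, 4077 and 3670 in mice 19, 23 and 24 and to 4988, 4298 and 4871 in mice 5, 7 and 8, with means of 4167 ± 547 (SD, n = 3) and 4719 ± 369 (SD, n = 3). Mouse 5 had the highest value of the 6 mice in 26 of 49 members and mouse 8 in 14, and mouse 24 had the lowest in 29 and mouse 7 in 10. Among Tet2+/+ mice, mouse 19 lay above mouse 24 in 48 of 49 members, with a median log2 difference of 0.36. Among Tet2-/- mice, mouse 5 lay above mouse 7 in 42, with a median of 0.27. Each was the largest pairwise difference of its genotype, and the other pairs differed by medians between 0.07 and 0.24 in size. The median log2 fold change between genotypes was 0.15. A difference between single mice varies more than one between group means, so these sizes are not directly comparable. Mouse 5 also had the deepest library, with 32855343 reads, and mouse 24 the shallowest, with 13036643, and the part of depth in this order was not tested. Mouse 7 and mouse 8, at 17953277 and 18478656 reads, were sequenced to a similar depth and differed by a median of -0.24, with mouse 8 higher in 34 of 49 members.

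The mitosis genes, listed by function as the neighbouring part of the cell cycle, ordered the mice in another way. Their 24 log2 fold changes were all above 0 with a median of 0.51 (23 of 24 and 0.34 with library size alone, and 23 of 24 and 0.31 without mouse 23). None passed an adjusted p of 0.05 with edgeR, 7 were higher at an unadjusted p under 0.05 and 10 were higher without overlap, against 3% and 6.41% of all genes tested, or 4.71% and 9.81% of those with at least 5 CPM. The 7 were Ccna2, Aurka, Aurkb, Plk1, Birc5, Kif20a and Anln, with log2 fold changes between 0.56 (Kif20a) and 0.78 (Plk1, the largest), and the smallest value of the list was 0.14, for Kif23. Mki67, the proliferation marker, had 569, 336 and 461 CPM in Tet2+/+ mice and 619, 782 and 557 CPM in Tet2-/- mice. Mouse 7 was the highest of the 6 mice in 18 of the 24 mitosis genes, whereas it was the highest in 3 of the 49 replication genes. Mouse 23 was the lowest in 21 mitosis genes but in 5 replication genes. Against mouse 8, mouse 7 was higher in 22 of 24 mitosis genes and in 15 of 49 replication genes. Over the replication genes the mean log2 deviation from the 6 mice was -0.08 in mouse 7 and -0.10 in mouse 23, and over the mitosis genes it was 0.48 and -0.62. Genes for nucleotide supply had 0.27 and -0.54 in these mice, and MCM2-7 had -0.20 and -0.01. By the marker sums, mouse 7 was also the mouse with the most mature neutrophil RNA and mouse 23 the one with the least, and the part of this in the order of the mice was not tested.

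**Figure D3:**
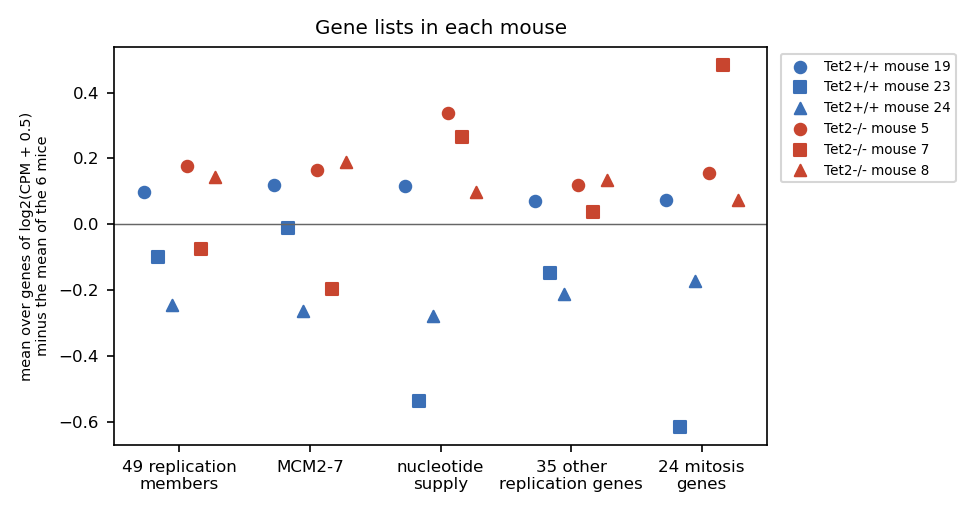
Mean over the genes of a list of log2(CPM + 0.5) minus the mean of the 6 mice (y axis), for each mouse. Mouse 7 (red square) lies at -0.20 for MCM2-7 and at 0.48 for the mitosis genes, and mouse 23 (blue square) at -0.01 and -0.62.

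Another 35 genes of DNA replication, listed by function and not among the members, showed 26 log2 fold changes above 0 and a median of 0.12 (15 and -0.034 with library size alone). Leaving out mouse 24 gave a median of 0.033 (22 values above 0), leaving out mouse 23 one of 0.051 (21 values) and leaving out mouse 8 one of 0.067 (21 values). None passed an adjusted p of 0.05 with edgeR, 6 were higher at an unadjusted p under 0.05 and 0 were lower, and 7 were higher without overlap, where 3% and 6.41% of all genes and 4.71% and 9.81% of genes with at least 5 CPM were higher. The largest value was that of Rnaseh2c, a subunit of the nuclease that removes RNA from DNA, with 38.0, 30.8 and 23.6 CPM in Tet2+/+ mice and 81.9, 79.1 and 48.999 CPM in Tet2-/- mice (log2 fold change 1.19, SE 0.27, adjusted p = 0.318 from edgeR). Cdc7, the kinase that phosphorylates MCM2-7 as origins fire, had 36.7, 23.6 and 31.1 CPM against 51.1, 56.1 and 43.1 CPM (log2 fold change 0.72, SE 0.21). Recql4 and Donson, which take part in building the active helicase with CDC45 and GINS, had 0.60 and 0.56, the histone chaperone gene Asf1b had 0.78 and Chtf8, of an alternative clamp loader, had 0.63. The smallest value was -0.17, for Mcm9.

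Levels were compared between subunits per length, as TPM (reads per effective length, scaled to the same total in every library), since many of these proteins act in complexes with 1 copy of each subunit. Summed over all annotated transcripts, the MCM2-7 order of means was Mcm2, Mcm6, Mcm7, Mcm5, Mcm3 and Mcm4, from 157 to 47.3 TPM, a ratio of 3.32. This full order held in 4 of 6 mice. In Mcm2, 129 of the 157 TPM came from Mcm2-203, a transcript of 273 bases annotated for nonsense-mediated decay, whose effective length of 31.6 bases turned a mean of 150 reads into a high TPM. Counting only protein-coding transcripts with an effective length of at least 250 bases, a choice made after seeing the data, the order was Mcm6, Mcm5, Mcm7, Mcm4, Mcm3 and Mcm2, from 61.9 to 26.2 TPM, a ratio of 2.37. That full order held in 2 of 6 mice. Mcm2 thus moved from the top to the bottom, and neighbours such as Mcm4 at 36.8 ± 5.19 (SD, n = 6) and Mcm3 at 35.6 ± 5.75 TPM (SD, n = 6) did not differ beyond their spread. Likewise Wdhd1 fell from 98.6 to 11.7 TPM, since a coding transcript of 203 bases, Wdhd1-205, held 79.6 TPM with a mean of 30.2 reads. Rfc2, Rfc3 and Gins2 had only 12.3%, 2.4996% and 11.6% of their reads on coding transcripts, so their levels as mRNA are uncertain. The order also changed in ORC (Orc4 highest over all transcripts, Orc6 over coding ones), in GINS (Gins1, then Gins4), in RFC (Rfc2, then Rfc1), in polymerase δ (Pold1, then Pold3) and in CAF-1 (Chaf1b, then Chaf1a). Over all and over coding transcripts, the full order of means held in 2 and 0 of 6 mice for ORC, 4 and 6 for GINS and 1 and 6 for RFC. It held in 3 and 3 for polymerase δ and in 3 and 4 for CAF-1. The order of means was the same on both scales for Rpa3, Rpa1 and Rpa2 (held by 1 of 6 mice over all transcripts and 6 of 6 over coding ones) and for Gmnn above Cdt1 (5 of 6 and 6 of 6 mice). It was the same in 6 of 6 mice on both scales for Prim1 above Pola2, Prim2 and Pola1, for Pole2 above Pole and for Rrm2 above Rrm1. Rrm2 had 67.5 ± 16.2 coding TPM (SD, n = 6) against 27.8 ± 4.69 for Rrm1 (SD, n = 6).

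**Figure D4:**
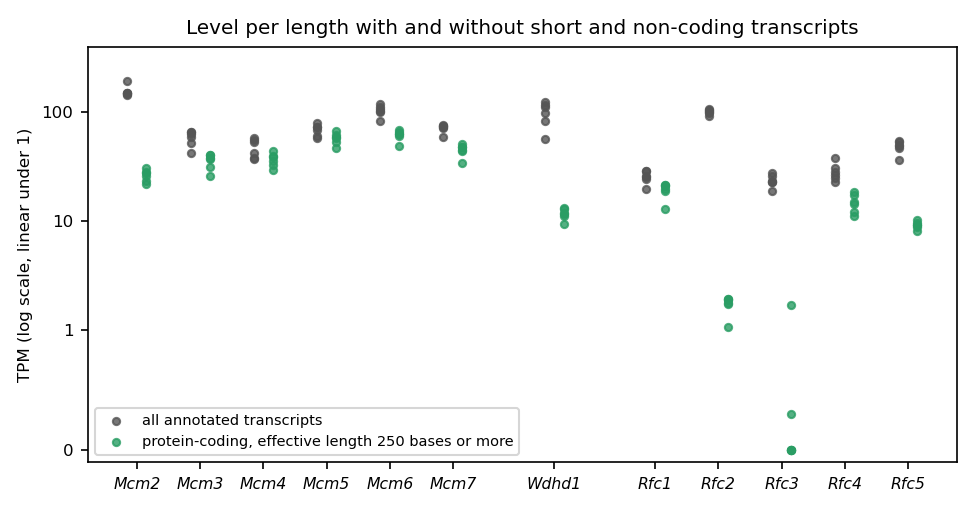
Level per length (y axis, TPM on a log scale that is linear under 1) of MCM2-7, Wdhd1 and the clamp loader genes, with 1 point per mouse, summed over all annotated transcripts (grey) and over protein-coding transcripts with an effective length of at least 250 bases (green). Mcm2 is the highest MCM gene in grey, at 157 TPM on average, and the lowest in green, at 26.2 TPM.

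As a share of its complex, summed over all transcripts, Orc3 made up 27.3% ± 1.40 (SD, n = 3) of ORC transcripts in Tet2+/+ mice and 24.3% ± 2.38 (SD, n = 3) in Tet2-/- mice. Gins2 made up 32.8% ± 0.535 (SD, n = 3) and 35.8% ± 1.04 (SD, n = 3) of GINS transcripts. This is not a share of GINS mRNA, since 11.6% of Gins2 reads lay on coding transcripts, where Gins2 was the lowest subunit (0.879 TPM). In Gins1, 57.4% of the TPM came from Gins1-204, a processed transcript with an effective length of 90.6 bases. Of 39 subunits compared, Orc3 and Gins2 were without overlap in the share of their complex, and the exact two-sided permutation test gave p = 0.1 for each, the smallest possible. For Orc3 the nearest mice, 23 and 7, were at 25.86% and 25.83%, and for Gins2 the nearest, 24 and 7, were at 33.3% and 34.7%. No like share was computed for other genes, so nothing is read from this count.

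The share of each transcript in its gene was also compared. Of 126 member transcripts with a mean share of at least 5% of their gene's reads, 21 (16.7%) had shares without overlap between genotypes, against 12.9% of 28371 transcripts of all genes. Of the 21, 14 were protein-coding transcripts, 9 with a larger and 5 with a smaller share in Tet2-/- mice, and 7 were of other types, 2 larger and 5 smaller. The examples named here were chosen after their values were seen. For Rfc4 the coding transcript Rfc4-201 held 51.1%, 37.8% and 42.7% of the reads in Tet2+/+ mice and 64.3%, 67.9% and 52.3% in Tet2-/- mice. In Lig1 the transcript Lig1-201 held 84.6% ± 1.87 (SD, n = 3) and 91.3% ± 0.633 (SD, n = 3). In Rfc1 the coding transcripts Rfc1-201 and Rfc1-203 differed in opposite directions, with means of 29.0% in Tet2+/+ and 18.6% in Tet2-/- mice for the first and 21.3% and 31.7% for the second. Retained-intron transcripts of Orc6 (Orc6-203) and Mcm10 (Mcm10-204) held smaller shares in Tet2-/- mice, 9.76% against 14.6% and 9.46% against 13.5%. In Pold2 the coding transcript Pold2-201 held 77.7% ± 2.19 (SD, n = 3) and 70.9% ± 4.18 (SD, n = 3), while Pold2-202, of type processed transcript, held 8.58% and 11.8%. Of the Cdc45 reads, the coding transcript Cdc45-201 held 39.0% ± 5.82 (SD, n = 3) and 46.0% ± 2.82 (SD, n = 3). Each of these had p = 0.1 in the exact two-sided permutation test, the smallest that 3 mice against 3 can give.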

How the data were processed

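Transcript abundance in sorted AML blasts was estimated by the authors with Salmon 0.12.0 against Ensembl release 94 transcripts of GRCm38.p6 (mm10), in 1 unstranded library per mouse. The estimated count values (reads per transcript) were deposited by the authors without normalization, together with TPM values deposited by the authors, scaled per effective length to the same total in each library, and with transcript lengths. Here estimated counts were summed to GENCODE M21 genes with Python 3.11.15 and rounded, and the 112 transcripts without a gene, with at most 0.0416% of the reads, were left out. Libraries held 13036643 to 32855343 reads, and every member had at least 104 reads in each mouse.

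Genes whose normalized counts summed to at least 10 (22170 genes) entered edgeR 4.0.16 (R 4.3.3), where the genotypes were compared by quasi-likelihood F-test after TMM normalization, without covariates, with Benjamini-Hochberg adjustment over all genes and a threshold of 0.05. Standard errors (SE) were taken as the absolute log2 fold change over the root of F. CPM values are TMM-normalized, and a pseudocount of 0.5 was used on the log2 scale. Single values were compared with exact permutation tests. Alternatives were DESeq2 1.42.0, length-scaled counts as made by tximport (the study's choice, with DESeq2), other filters and scalings, robust estimation, and leaving out each mouse. Sequence shared with other genes was found with BLAST+ 2.17.0 (95% identity over at least 50% of a transcript).

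The members and lists were chosen with earlier results of these data known. All members are described, with values in every mouse for those with an unadjusted p under 0.05, those without overlap and the most abundant per length of each role, and values of other members were added after they had been seen. Genes of the comparison lists are named where the unadjusted p is under 0.05 or the fold change is the largest or smallest, and Tet2, Cebpa and Mki67 are named as checks. Protein motifs, also planned, were not analysed here. The labels give each library as a separate mouse, and the study used several donors with several recipients each. Which donor each library came from is not given in the sources used here, so mice of a genotype may share a donor.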

Additional observations from a re-analysis of the deposited data

How the results depend on the processing

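No member passed an adjusted p of 0.05 under any of the settings tried, and Cdc45 kept its direction in each of them. Over all genes the count past an adjusted p of 0.05 was 10 with edgeR, 385 with DESeq2 on the same counts, 386 with DESeq2 on length-scaled counts, 66 without a filter on low counts, 5 with edgeR on length-scaled counts, and between 0 and 7 with a mouse left out. The lowest adjusted p among members lay between 0.0678 (DESeq2 on the same counts) and 0.9998 (edgeR without mouse 24). At an unadjusted p under 0.05 the number of members was 1, 2 with length-scaled counts in edgeR or DESeq2, and between 1 and 6 with a mouse left out, with 6 without mouse 19 or without mouse 7. The shares of all genes at that threshold were not taken under these other settings, so nothing is read from these counts. With a mouse left out the median log2 fold change lay between 0.05 and 0.23 and the number above 0 between 33 and 46. With library size alone the median was -0.015, 21 members were above 0, 1 was higher and 2 were lower without overlap, and as TPM 1 was lower without overlap (Orc3). The shares of all genes without overlap were not taken at these scales. The log2 fold changes that changed sign with library size alone were Orc6 -0.058, Cdc6 -0.0039, Mcm2 -0.016, Mcm3 -0.094, Mcm4 -0.057, Mcm6 -0.13, Mcm7 -0.064, Gins2 -0.081, Gins4 -0.0092, Pola1 -0.053, Pola2 -0.11, Prim2 -0.093, Pold3 -0.0065, Pole -0.055, Pole2 -0.15, Pcna -0.12, Rfc1 -0.015, Rpa1 -0.12, Rpa3 -0.077, Wdhd1 -0.097 and Tipin -0.061. Those that did so with length-scaled counts were Orc2 0.029, Orc4 0.070, Mcm7 -0.017, Pold3 -0.0098, Pcna -0.028, Rfc3 0.012, Rpa1 -0.041 and Chaf1b 0.025 in edgeR and Orc2 0.026, Orc4 0.074, Mcm7 -0.016, Pold3 -0.0074, Pcna -0.020, Rfc3 0.014, Rpa1 -0.040 and Chaf1b 0.029 in DESeq2. With filterByExpr Pole2 was -0.0087, and with the reads of Gse1, the overlapping gene on the opposite strand, added Gins2 was -0.0050. Leaving out each mouse in turn gave ranges that crossed 0 for Cdc6 (-0.035 to 0.32), Chaf1b (-0.11 to 0.026), Gins1 (-0.44 to 0.043), Mcm3 (-0.059 to 0.24), Mcm4 (-0.021 to 0.22), Mcm6 (-0.051 to 0.14), Mcm7 (-0.028 to 0.21), Orc2 (-0.30 to 0.19), Orc3 (-0.17 to 0.016), Orc5 (-0.14 to 0.079), Orc6 (-0.019 to 0.22), Pcna (-0.087 to 0.22), Pola1 (-0.036 to 0.25), Pola2 (-0.030 to 0.16), Pole2 (-0.14 to 0.11), Prim2 (-0.076 to 0.17), Rfc3 (-0.14 to 0.063), Rpa1 (-0.12 to 0.19), Rpa3 (-0.013 to 0.16), Tipin (-0.017 to 0.27) and Wdhd1 (-0.039 to 0.18). Ranges that stayed above 0 could still be wide, such as those of Pold2 (0.074 to 0.44), Pold3 (0.066 to 0.26), Lig1 (0.11 to 0.39), Gins3 (0.076 to 0.34) and Mcm5 (0.074 to 0.31). The cause of these changes was not tested. No paired analysis was possible because the genotypes share no mouse number.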
